A study of Bos taurus with 10 samples.

Results

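Sarcomere and contractile protein genes were read by 68 probe sets for 53 genes, among 10186 probe sets with values for 6732 genes. The rule used gene names and no values, but it was drawn up with earlier results of these data known. A probe set belonged to the group when its single annotated symbol was a troponin, a muscle or nonmuscle myosin heavy or light chain, a myosin binding protein, a myomesin, a tropomyosin, an alpha-actinin, a muscle actin, or TTN, NEB, DES, CKM, CKMT2, MYOZ1, MYF6, TCAP, LDB3, CSRP3 or PLN. No filter on brightness was applied. The annotation assigned 90 probe sets to such genes, of which 22 were blank on every array. Of the 68 members, 21 belonged to skeletal muscle forms, 13 to cardiac forms, 12 to genes used in both kinds of striated muscle, 6 to tropomyosins, 3 to smooth muscle forms, 10 to nonmuscle forms and 3 to the light chains MYL5 and MYL10.

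The arrays held total RNA of cattle (Bos taurus) hybridised to a human expression array, so each bovine transcript was read by probes designed for a human gene. There were 3 arrays of pooled embryos made by in vitro fertilization, in which oocytes are fertilized outside the animal, and 1 array for each of 7 tissues, namely heart, muscle, lung, spleen, liver, kidney and brain. The labels call the brain array adult, and the series title calls all 7 tissues adult. They give no breed, age or sex, no chamber of the heart, no named muscle and no embryo stage, and nothing in them tells if the 3 embryo arrays hold different pools or repeat 1 pool. The p-values therefore measure the spread between these arrays, which may be technical in embryos and is a spread between different organs in adults. All values are intensities after quantile normalization, on a linear scale, and all log2 differences are of log2(intensity + 72), where 72 is the lower quartile of the normalized values. The offset understates differences of dim probe sets, and probe sets are not compared with each other in level because bovine sequence may match their probes to different degrees.

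The sarcomere is the contractile unit of striated muscle. Thick filaments of myosin slide along thin filaments of actin, and calcium starts the movement by binding troponin C, which shifts tropomyosin on the thin filament through troponin I and troponin T. Titin spans from the Z-disc, where alpha-actinin crosslinks the thin filaments, to the M-band. Fast skeletal, slow skeletal and heart muscle use different genes of the same families, and slow skeletal fibres share several of theirs with the ventricle. Smooth muscle and other cells build contractile bundles from smooth muscle and nonmuscle forms.

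The tissue labels were checked with markers. Of 9 skeletal muscle markers 6 had a value, with a summed intensity of 2125 in muscle, 508 in heart and 63.1 to 122 elsewhere. Of 5 heart markers 4 had a value, summing to 2806 in heart, 506 in muscle and 290 to 702 elsewhere. NPPB, a natriuretic peptide, read 259 to 461 on all 10 arrays and did not separate heart. The members ACTN3 and MYL7 are among these skeletal muscle and heart markers. Smooth muscle markers, 5 of 8 with a value, summed to 2668 in lung and 1962 in spleen against 282 to 1085 on the other 8 arrays. Embryos alone were bright for 3 trophectoderm markers, at 2028 to 2729 against 8.91 to 231 in tissues, and low for 4 fibroblast markers, at 195 to 208 against 759 to 5456. The 2 erythroid markers with a value also summed highest in embryos, at 497 to 732 against 119 to 348 in tissues. Endothelial markers, 2 of 4 with a value, summed to 236 to 461 and did not separate the arrays.

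Heart and muscle were set against the 5 other tissues to ask which contractile genes mark striated muscle. Of the 68 member probe sets, 23, for 21 genes, were higher in heart and muscle (33.8%, against 2.59% of all probe sets tested) and 1 was lower (1.47%, against 0.707%). The median difference of the members was 1.75 log2, and that of all probe sets was -0.06. Both heart and muscle lay above all 5 other tissues for 34 members (50.0%, against 10.3% of all), above all 8 other arrays for 32 (47.1%, against 7.61%) and below all 5 for 3 (4.41%, against 8.88%). The call is a limma adjusted p (Benjamini-Hochberg) under 0.05. The spread came from a limma fit of 3 classes over all 10 arrays, and fitted on the 7 adult arrays alone it gave 20 members higher (against 0.913% of all probe sets) and 0 lower (against 0.0589%). Without the heart array 36 members were higher, against 2.3% of all. A filter asking for a value above the median on at least 3 arrays removes probe sets bright in heart and muscle alone; it left 20 of the 68 members, of which 1 was higher, against 1.42% of all probe sets it left. The brightest array was heart for 23 members and muscle for 23, together 67.6% of members against 23.1% of all probe sets. Because each tissue is bulk RNA, more muscle cells and more RNA per cell cannot be told apart.

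**Figure D1:**
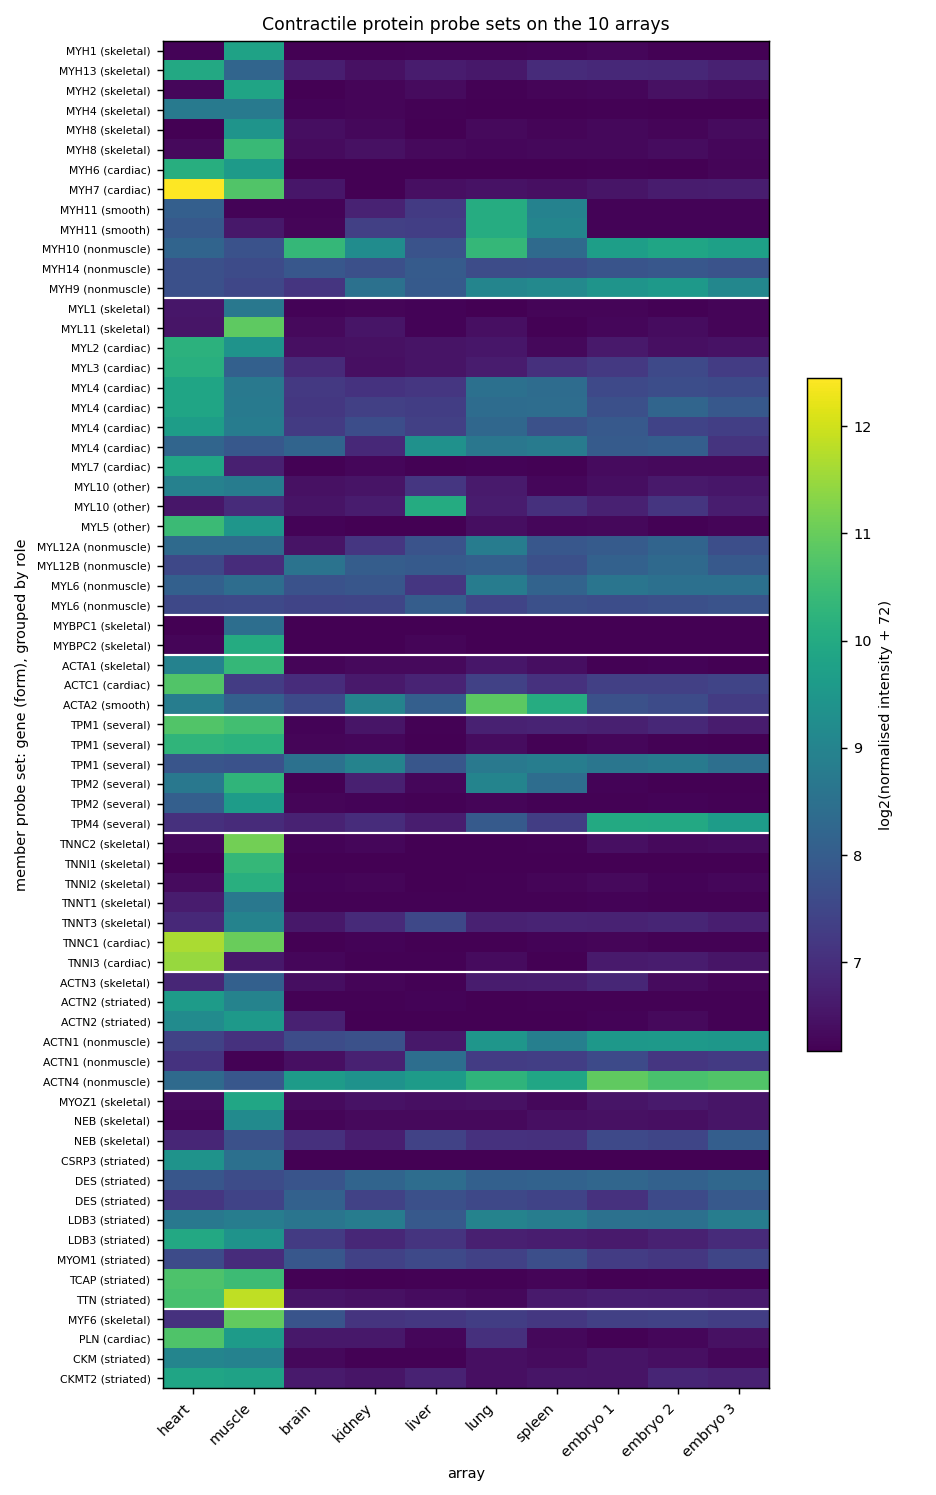
Colour gives log2(normalised intensity + 72) of the 68 member probe sets (rows, labelled by gene and form, grouped by role) on the 10 arrays (columns). Most rows of skeletal, cardiac and striated forms are bright in heart, in muscle or in both and dark in the other 8 columns, while the 10 rows of nonmuscle forms are brightest in lung (3), liver (3), embryos (3) or brain (1).

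The map of all members across the arrays shows these blocks. Among the 46 probe sets of skeletal, cardiac and shared striated forms, 18 were higher in heart and muscle and none was lower, with a median difference of 2.05 log2. Among the other 22, 5 were higher (2 of TPM1, 1 of TPM2, 1 of MYL5 and 1 of MYL10) and 1 was lower. A gene bright in heart but not in muscle, or the reverse, has a wide spread within the class of 2 arrays, and such genes did not pass this test.

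Myosin heavy chains are the motors of the thick filament. MYH7, the slow and cardiac beta heavy chain, read 5534 in heart and 1638 in muscle, against 21.1 in brain, 1.21 in kidney, 14.5 in liver, 17.1 in lung and 14 in spleen. Its embryo values were 20.7, 28.7 and 29.5, and its difference between heart with muscle and the other tissues was 5.18 ± 0.36 (SE, limma adjusted p = 2.39e-05), the largest of any member. Both striated arrays were thus far above the other 8. The heart value was 3960.5 as deposited, since quantile normalization sets the brightest ranks to a common scale. MYH6, the cardiac alpha heavy chain, read 1037 in heart and 699 in muscle and 0.39 to 4.72 on the other 8 arrays, a difference of 3.67 ± 0.30 (SE, limma adjusted p = 6e-05). A further probe set, annotated to both MYH7 and MYH6 and therefore no member, read 6224 in heart and 2217 in muscle and 0.37 to 18.3 elsewhere. MYH6 and MYH7 are near-identical neighbours in the genome, with no protein-coding gene between them in the bovine RefSeq table (assembly ARS-UCD2.0), so their probe sets are uncertain as to which gene they read.

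The fast heavy chains were read in muscle. MYH1 and MYH2, heavy chains of adult fast fibres, read 818 and 836 in muscle. In heart they read 2.78 and 5.36, within the range of the 8 arrays without striated muscle (0.28 to 5.31 and 1.05 to 15.4). MYH8, the perinatal heavy chain, had 2 probe sets at 1294 and 608 in muscle, 7.98 and 0.7 in heart and at most 15 elsewhere. MYH4 and MYH13 did not follow this split. MYH4, a fast heavy chain, read 356 in heart and 365 in muscle against 0.265 to 5.03 elsewhere, a difference of 2.54 ± 0.33 (SE, limma adjusted p = 0.00168). MYH13, the extraocular muscle heavy chain, read 926 in heart and 224 in muscle against 15.9 to 50.3, a difference of 2.42 ± 0.40 (SE, limma adjusted p = 0.00827) that had limma adjusted p = 0.0548 on the 7 adult arrays alone, 0.0555 with averaged embryo arrays and 0.0664 without the heart array. MYH1, MYH2, MYH4, MYH8 and MYH13 lie on 1 stretch of the bovine genome with at most 4 other protein-coding genes between any pair, and are closely related in sequence. Which of these genes a human probe set reads in bovine RNA was not tested.

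Light chains bind the neck of the myosin heavy chain. MYL1, the fast essential light chain, read 340.0 in muscle, 21.3 in heart and 1.02 to 4.72 elsewhere. MYL11, the fast regulatory light chain, read 1829 in muscle, 20.2 in heart and 1.6 to 20.1 elsewhere. The slow and ventricular pair was bright on both striated arrays. MYL2, the regulatory chain of that pair, read 1103 in heart and 603 in muscle against 6.95 to 25.3, a difference of 3.36 ± 0.28 (SE, limma adjusted p = 8.46e-05). MYL3, its essential partner, read 1047 in heart and 202 in muscle, 13.8 to 60.8 in the other tissues and 76.9, 118 and 83.4 in embryos, a difference of 2.40 ± 0.44 (SE, limma adjusted p = 0.0146). That call was lost on the 7 adult arrays alone (adjusted p = 0.0818), with averaged embryo arrays (0.0796) and without the heart array (0.0897).

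MYL7, the atrial regulatory light chain, read 869 in heart, 33.1 in muscle and 1.93 to 9.21 on the other arrays, so that heart alone was bright. MYL4, the atrial and embryonic essential light chain, had 4 probe sets. The first 3 read 867, 866 and 741 in heart and 346, 355 and 376 in muscle, with 64.6 to 288, 74.7 to 272 and 81.1 to 236 in the other tissues. Of these the last passed (1.58 ± 0.32 SE, limma adjusted p = 0.0214, which became 0.165 without the heart array, and 0.0868 both on the 7 adult arrays alone and with averaged embryo arrays), while the first and second had adjusted p = 0.0826 and 0.0732. The fourth was brightest in liver, at 575, and read 227 in heart and 167 in muscle. MYL5, a regulatory light chain gene, read 1329 in heart and 634 in muscle against 0.39 to 12 elsewhere, a difference of 3.70 ± 0.32 (SE, limma adjusted p = 9.22e-05). The 2 probe sets of MYL10, another regulatory light chain gene, went apart. The first read 416 in heart and 374 in muscle against 5.91 to 72.2 elsewhere (2.26 ± 0.31 SE, limma adjusted p = 0.00285), and the second read 985 in liver and 18.7 to 68.0 on the other 9 arrays.

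Myosin binding proteins were read for the skeletal forms. MYBPC2, the fast form, read 982 in muscle and 4.7 in heart, with 0.37 to 4.05 on the other arrays. MYBPC1, the slow form, read 275 in muscle and at most 0.53 on each of the other 9 arrays. Both were confined to the muscle array among the 10.

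Of the 3 muscle actins, each was brightest on a different array. ACTA1, skeletal actin, read 422 in heart and 1238 in muscle, 5.05 to 22 in the other tissues and 1.61, 3.42 and 0.71 in embryos, a difference between striated and other tissues of 3.28 ± 0.37 (SE, limma adjusted p = 0.000674). ACTC1, cardiac actin, read 1658 in heart, while muscle at 84.9 lay within the 24.5 to 104 of the other arrays. ACTA2, smooth muscle actin, read 1812 in lung and 992 in spleen, 433 in kidney, 386 in heart, 202 in muscle, 199 in liver and 119 in brain. Coding sequences of the actins are nearly identical, so these probe sets tell the genes apart only as far as they lie outside shared sequence.

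Tropomyosins lie along the thin filament. The probe sets of TPM1, the alpha form, disagreed. One read 1638 in heart and 1425 in muscle against 2.06 to 44.1 on the other 8 arrays, a difference of 4.14 ± 0.25 (SE, limma adjusted p = 9.55e-06). The second read 1181 in heart and 1088 in muscle against 1.06 to 10.6, a difference of 3.97 ± 0.26 (SE, limma adjusted p = 1.5e-05). The third was dimmer in heart (157), muscle (144) and liver (159.7) than in the remaining arrays, which read 282 to 434, and its difference was -0.78 ± 0.29 (SE, limma adjusted p = 0.19). TPM1 makes tissue-specific transcripts by alternative splicing, and which transcripts each probe set reads was not tested. TPM2, the beta form, likewise had a probe set at 196 in heart and 725 in muscle and 1.35 to 4.84 elsewhere (2.62 ± 0.42 SE, limma adjusted p = 0.00818, and 0.0743 without the muscle array). Its other probe set read 341 in heart and 1167 in muscle, and also 443 in lung and 269 in spleen, where smooth muscle markers were bright, against 1.21 in brain, 34.3 in kidney, 6.25 in liver and 3.48, 0.62 and 0.71 in embryos. The part of smooth muscle in the lung and spleen values was not tested.

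**Figure D2:**
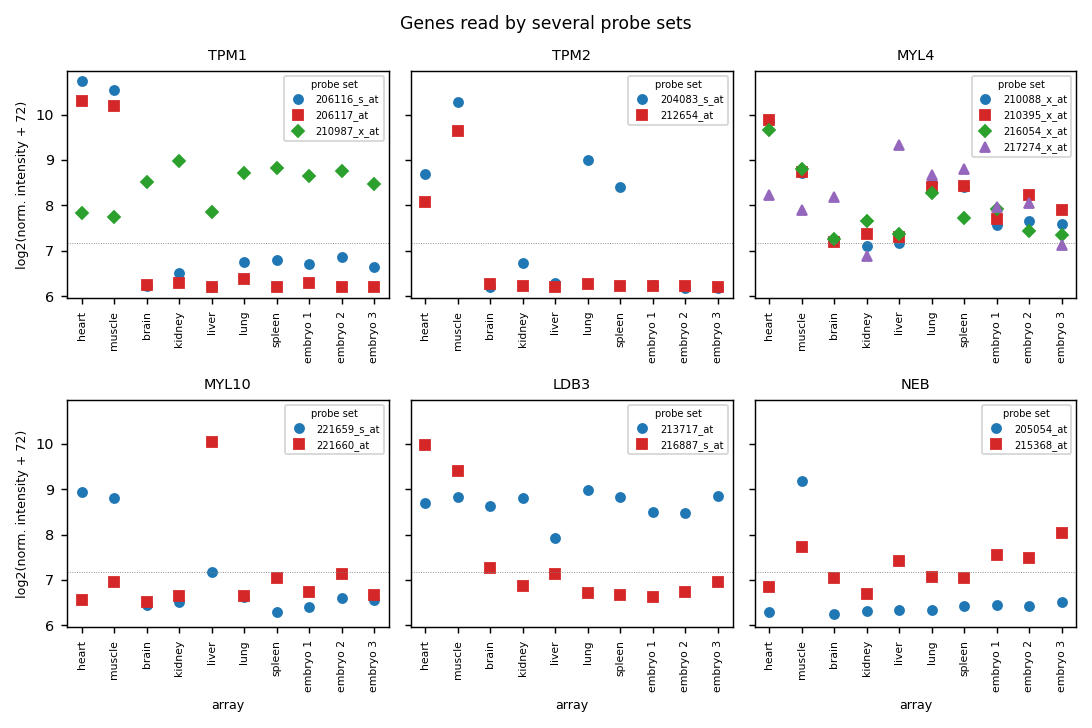
Each panel plots log2(normalised intensity + 72) of 1 gene by array, with a marker shape for each probe set, and the dotted line marks an intensity of 72. Probe sets of TPM1, TPM2, MYL4, MYL10, LDB3 and NEB diverge: in TPM1, for example, 2 probe sets are bright in heart and muscle and the third is dimmer there than in kidney, lung and spleen.

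The plot of genes with several probe sets shows how far these readings can part. Of 12 genes with more than 1 probe set, 5 had called and uncalled probe sets in the comparison of heart and muscle with the other tissues: LDB3, MYL10, MYL4, TPM1 and TPM2. ACTN2 was called by both of its probe sets.

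Troponin genes differed in which of heart and muscle was bright. TNNC1, the calcium-binding subunit of slow skeletal and cardiac muscle, read 3133 in heart and 1998 in muscle, and 0.5 in brain, 3.67 in kidney, 0.33 in liver, 1.02 in lung and 3.32 in spleen. Embryos read 4.72, 2.19 and 2.26, and the difference of heart and muscle from the other tissues was 5.13 ± 0.25 (SE, limma adjusted p = 4.05e-06). TNNC2, its fast skeletal counterpart, read 2157 in muscle, 7.01 in heart and 1 to 14.6 elsewhere. Heart was therefore bright for the slow and cardiac gene and not above embryos for the fast gene.

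Troponin I, the inhibitory subunit, was read for 3 genes. TNNI3, the cardiac gene, read 2773 in heart, 23.6 in muscle, 0.37 to 9.59 in the other tissues and 27.2, 28.1 and 20.9 in embryos, so muscle lay at the level of embryos. TNNI1, the slow skeletal gene, read 1241 in muscle and at most 0.71 on the other 9 arrays. TNNI2, the fast skeletal gene, read 1043 in muscle, 10.4 in heart and 1 to 8.17 elsewhere. Troponin T, which ties the complex to tropomyosin, was read for TNNT1, the slow gene, at 338 in muscle, 28.3 in heart and 1.35 to 2.5 elsewhere. TNNT3, the fast gene, read 432 in muscle, 114 in liver and 23.7 to 48.5 on the other 8 arrays, heart included at 46.2. Slow and fast genes of all 3 subunits were thus bright together in muscle, with slow TNNC1 shared with heart.

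Some troponin genes are neighbours. TNNI3 and TNNT1 have no protein-coding gene between them in the bovine table, yet TNNI3 was brightest in heart (heart over muscle 4.89 log2) and TNNT1 in muscle (-2.03). TNNI2 and TNNT3 have 2 genes between them, and both were brightest in muscle (-3.76 and -2.09). With 1 array each of heart and muscle, these are descriptions of 2 arrays.

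**Figure D3:**
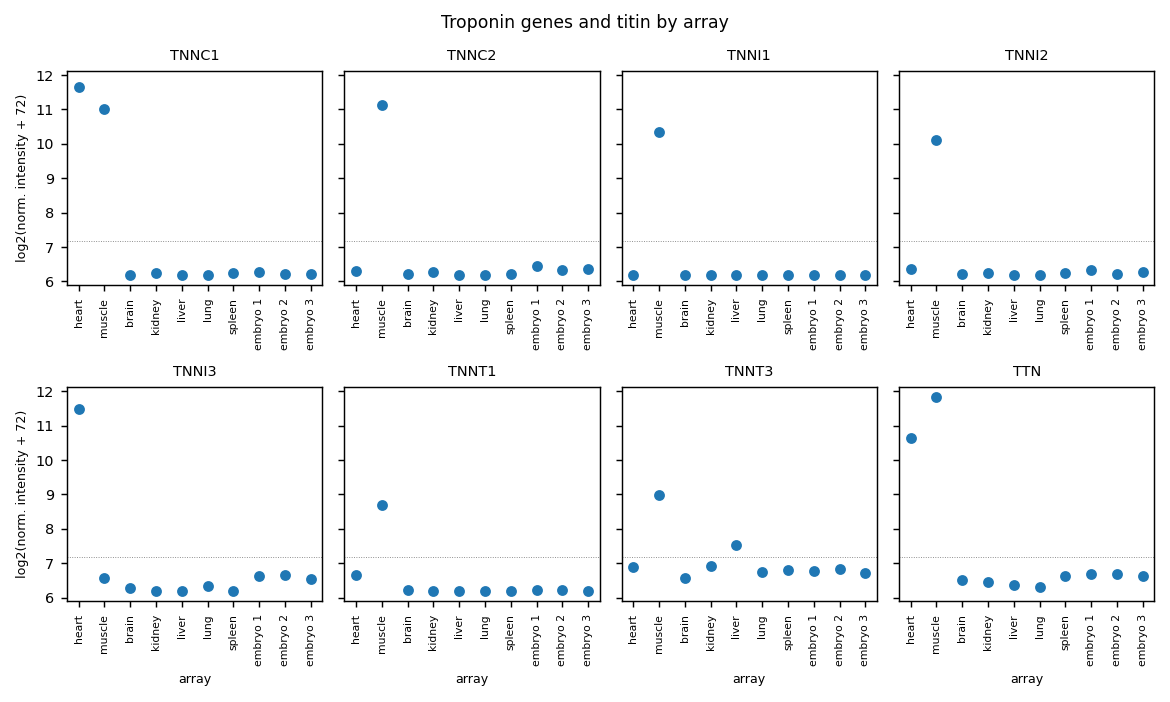
Each panel plots log2(normalised intensity + 72) of 1 gene on the 10 arrays, with the dotted line at an intensity of 72. TNNC1 and TTN are bright in heart and muscle, TNNI3 in heart alone, and TNNC2, TNNI1, TNNI2, TNNT1 and TNNT3 in muscle above every other array.

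In the plot of troponins and titin by array, only TNNT3 rises above 72 outside heart and muscle, in liver. TTN, the giant elastic protein titin, read 1509 in heart and 3608 in muscle against 19.3 in brain, 15.2 in kidney, 11 in liver, 7.17 in lung and 26 in spleen, and 31.1, 30.5 and 26.4 in embryos. Its difference between striated and other tissues was 4.79 ± 0.29 (SE, limma adjusted p = 1.06e-05). TCAP, which caps titin at the Z-disc, read 1581 in heart and 1357 in muscle against 0.63 to 4.94 on the other 8 arrays, a difference of 4.37 ± 0.25 (SE, limma adjusted p = 9.55e-06). Both were bright in heart and muscle alike.

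Z-disc genes gave mixed readings. The sarcomeric alpha-actinin ACTN2 had probe sets at 708 in heart and 432 in muscle and at 516 in heart and 682 in muscle, with differences of 3.09 and 3.09 log2 (limma adjusted p = 0.000365 and 0.000354). ACTN3, the alpha-actinin of fast fibres, read 201 in muscle, 42.9 in heart and 1.25 to 42.7 elsewhere. CSRP3, a muscle LIM protein, read 608 in heart and 285 in muscle against 0.18 to 1.16 elsewhere, a difference of 2.77 ± 0.36 (SE, limma adjusted p = 0.00191). LDB3, a PDZ and LIM protein of the Z-disc, read 934 in heart and 606 in muscle against 26.1 to 82.7 elsewhere on its first probe set (2.76 ± 0.26 SE, limma adjusted p = 0.000179). Its other probe set read 171 to 435 on all 10 arrays. MYOZ1, a calcineurin-binding Z-disc protein of fast fibres, read 869 in muscle and 7.55 to 26.3 on the other 9 arrays. NEB, nebulin, which runs along the skeletal thin filament, read 508 in muscle and 4.42 to 19.7 elsewhere on its first probe set, while the second was brightest on the third embryo array (191).

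Some sarcomeric names did not mark striated muscle on this array. DES, the muscle intermediate filament protein desmin, had probe sets at 159 in heart and 125 in muscle, and at 72.2 in heart and 101 in muscle, below the brightest other tissue in both cases (270.5 in liver and 207 in brain). MYOM1, myomesin of the M-band, read 121 in heart and 52.2 in muscle and 93.8 to 163 in the other tissues. Their differences were -0.40, -0.34 and -0.30 log2 and none passed. Whether these human probes match bovine sequence was not tested.

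Creatine kinases buffer ATP at the filaments. CKM, the cytosolic muscle form, read 449.5 in heart and 425 in muscle against 1.46 to 17.8 on the other arrays, and CKMT2, the mitochondrial form, read 853 in heart and 812 in muscle against 13.5 to 40.7. Their differences were 2.69 ± 0.30 (SE, limma adjusted p = 0.000594) and 3.24 ± 0.23 (SE, limma adjusted p = 2.86e-05), and heart and muscle differed by 0.07 and 0.07 log2. PLN, phospholamban, an inhibitor of the calcium pump of the sarcoplasmic reticulum, read 1614 in heart and 708 in muscle against 1.78 to 60.3, a difference of 3.61 ± 0.34 (SE, limma adjusted p = 0.000181). MYF6, a transcription factor of skeletal muscle, read 1912 in muscle, 62 in heart, 150.2 in brain and 66.4 to 96.5 elsewhere.

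Heart and muscle were then compared with each other, as a description of 2 arrays with no test. A 2-fold limit was passed by 11 members with heart higher (16.2%, against 5.65% of all probe sets) and by 21 with muscle higher (30.9%, against 7% of all). Of the 13 cardiac probe sets, 8 passed with heart higher and none with muscle higher. Of the 21 skeletal probe sets, 18 passed with muscle higher and 1, MYH13, with heart higher. The 12 probe sets of genes used in both tissues had a median difference of 0.14, and TTN was the only one of them past 2-fold. The counts of 11 and 21 became 4 and 1 under the filter on 3 arrays, and 6 members passed with heart higher when the offset was 4 times larger. The largest heart values relative to muscle were those of TNNI3 (4.89), ACTC1 (3.46) and MYL7 (3.16), followed by MYL3 (2.03). The largest the other way were TNNC2 (-4.82), MYL11 (-4.36), TNNI1 (-4.18) and the brighter MYH8 probe set (-4.09). TTN differed by -1.22, by -0.85 as deposited and by -0.39 with arrays scaled to a common median. As deposited, the median of all probe sets moved to -0.18, with 375 probe sets past 2-fold in heart and 1081 in muscle (25.8% of them in heart, against 44.7% after quantile normalization).

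**Figure D4:**
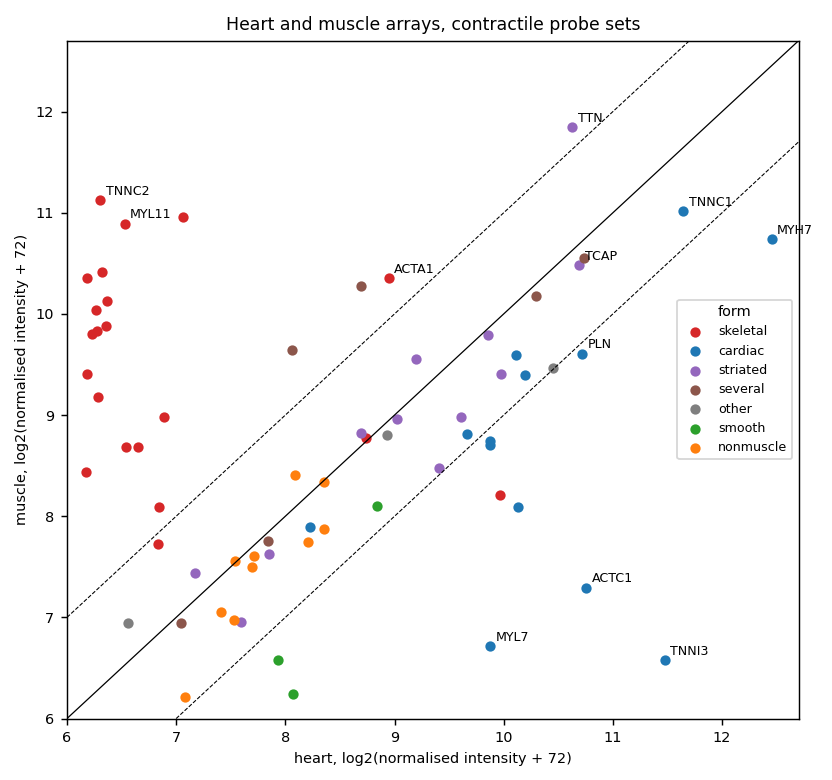
Each point is a member probe set, with log2(normalised intensity + 72) in heart on the x axis and in muscle on the y axis, coloured by form. The solid line marks equal values and the dashed lines a 2-fold difference. Skeletal forms lie mostly in the upper left, cardiac forms below the solid line with TNNI3, ACTC1 and MYL7 farthest from it, and striated forms near the diagonal.

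The scatter of heart against muscle shows cardiac forms with a graded distance. TNNI3, ACTC1 and MYL7 were at or near the level of the other arrays in muscle. TNNC1, MYL2, MYH6 and MYH7 were bright in both, at 0.63, 0.80, 0.52 and 1.71 log2 for heart over muscle. In the other direction ACTA1 and both TPM2 probe sets were bright in both tissues and brighter in muscle, at -1.41, -1.58 and -1.58.

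Embryos were compared with the 7 tissues, the comparison that the series title names. Of the 68 members 1, TPM4, was higher in embryos (1.47%, against 5.46% of all probe sets) and none was lower by limma (0%, against 1.74%). At an unadjusted limma p under 0.05 the counts were 4 higher (5.88%, against 13.3% of all) and 3 lower (4.41%, against 7.5%), both smaller shares than among all probe sets. Members bright in heart and muscle alone have a wide spread within the 7 tissues, so this fit could hardly call them lower in embryos. TNNC1 differed by -1.44 ± 1.24 (SE) and TTN by -1.16 ± 1.16 (SE). The lack of lower calls therefore does not show equal levels. Of the 46 probe sets of skeletal, cardiac and striated forms, 34 read below 72 on all 3 embryo arrays. Among all members it was 43, or 63.2%, against 18.9% of all probe sets. On the 5 tissues other than heart and muscle, 37 members were below 72 on all 5 (54.4%, against 6.08%). Embryos against these 5 tissues, which are also the controls of heart and muscle above, gave 2 members higher, TPM4 and ACTN4 (2.94%, against 5.08%), and none lower (0%, against 1.86%), with 5 higher (7.35%, against 12.8%) and 2 lower (2.94%, against 7.96%) at an unadjusted p under 0.05. The median difference over the members was 0.03 log2 there.

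TPM4, a tropomyosin of nonmuscle cells, read 939, 931 and 732 on the 3 embryo arrays. In tissues it read 60 in heart and 51.5 in muscle, 37.9 in brain, 52.9 in kidney, 29.9 in liver, 177 in lung and 87.1 in spleen. Every embryo value was above the brightest tissue, lung, and the means were 867 ± 117 (SD, n = 3) and 70.9 ± 50.2 (SD, n = 7). The difference was 2.77 ± 0.25 (SE, limma adjusted p = 6.15e-05) from the 7 tissues and 2.73 ± 0.27 (SE, limma adjusted p = 0.000236) from the 5. With the 3 embryo arrays averaged and counted as 1 sample, the adjusted p became 0.107 and 0.155.

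The nonmuscle alpha-actinins ACTN1 and ACTN4 crosslink actin at adhesions and in the cytoplasm. ACTN4 read 1861, 1529 and 1658 in embryos, 713 in brain, 596 in kidney, 719 in liver, 1141 in lung and 870.2 in spleen, and 254 in heart and 162 in muscle. All 3 groups were separate, with embryos highest and the striated tissues lowest. Its difference was 1.02 ± 0.24 (SE, limma adjusted p = 0.0287) between embryos and the 5 tissues, 1.49 ± 0.45 (SE, limma adjusted p = 0.073) between embryos and all 7, and -1.64 ± 0.28 (SE, limma adjusted p = 0.00924) between heart with muscle and the 5 tissues. The first of these was lost with arrays scaled to a common median (adjusted p = 0.151), without the kidney array (0.0539), without an embryo array (0.100 to 0.136) and with averaged embryo arrays (0.719). The second passed without the lung array (1.62, limma adjusted p = 0.0495). The last was lost on the 7 adult arrays alone (0.0597), with averaged embryo arrays (0.0601) and without the muscle array (0.0744).

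ACTN1 read 663, 672 and 644 in embryos, 125 in brain, 141 in kidney, 22.7 in liver, 637 in lung and 397 in spleen, and 98 in heart and 60.9 in muscle. Every embryo value was above every tissue, but lung at 637 was close to them, and the difference from the 7 tissues was 1.70 ± 0.52 (SE, limma adjusted p = 0.0733). It passed as deposited (adjusted p = 0.0466) and without the lung (0.0159) or the spleen array (0.0488). Its other probe set was brightest in liver, at 277, and read 118, 71.5 and 78 in embryos. ACTN1, ACTN4 and TPM4 were the members for which all 3 embryo arrays lay above all 7 tissues (4.41%, against 9.43% of all probe sets). They lay below all 7 for 2, ACTA1 and 1 MYH11 probe set (2.94%, against 5.52%). Against the 5 tissues, all 3 embryo arrays were above for 12 members (17.6%, against 13%) and below for 2 (2.94%, against 7.39%). Of the 12, MYH6, MYL7, MYOZ1, TNNC2, TNNI3, TTN and the first NEB probe set read below 72 in embryos and in the 5 tissues. Their order therefore rests on dim values. ACTA1 was as dim there, as was the MYH11 probe set in embryos and brain.

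The nonmuscle myosin heavy chains MYH9 and MYH10, motors of cell cortex and cytokinesis, were bright in embryos and in some tissues. MYH9 read 617, 671 and 468 in embryos, 69.8 in brain, 293 in kidney, 177 in liver, 449.8 in lung and 487 in spleen, and 135 in heart and 109 in muscle, and spleen and the third embryo array overlapped. MYH10 read 749, 866 and 784 in embryos, below brain at 1226 and lung at 1241, with 524 in kidney, 254 in spleen, 148 in liver, and 223 in heart and 143 in muscle. Their differences from the 7 tissues were 1.21 ± 0.41 (SE, limma adjusted p = 0.106) and 0.91 ± 0.58 (SE, limma adjusted p = 0.421), and MYH9 passed as deposited (adjusted p = 0.0449). MYH14, a further nonmuscle heavy chain, read 122 to 179 on all 10 arrays. The nonmuscle light chains MYL6, MYL12A and MYL12B did not pass in any of the 3 tests, and MYL12A, at 179, 220.2 and 134 in embryos, was brightest in lung (377) and dimmest in brain (18.5).

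Smooth muscle members followed lung and spleen. MYH11, the smooth muscle heavy chain, read 1003 and 992 in lung and 449 and 428 in spleen on its 2 probe sets. In the other tissues they ran from 2.98 in brain to 197 in heart, and in embryos from 3.04 to 3.74. ACTA2 had the same leading tissues, and read 139, 124 and 80.8 in embryos. The differences of embryos from the 5 tissues were -1.77 ± 0.73 (SE, limma adjusted p = 0.192) and -1.62 ± 0.79 (SE, limma adjusted p = 0.276) for MYH11 and -1.58 ± 0.64 (SE, limma adjusted p = 0.181) for ACTA2, and none passed. CNN1, calponin of smooth muscle and no member, read 169 in lung and 214 in spleen and at most 1.01 on the other 8 arrays. ACTG2 and MYLK, also no members, were brightest in lung and spleen too. Other smooth muscle genes were not confined to lung and spleen. SMTN read 142 in lung and 126 in spleen against 203 in liver on 1 probe set, and was brightest in heart (316) on the other. CALD1 read 504 in spleen and 487 in liver, CNN3 was brightest in embryos, and PPP1R12B in heart or muscle.

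**Figure D5:**
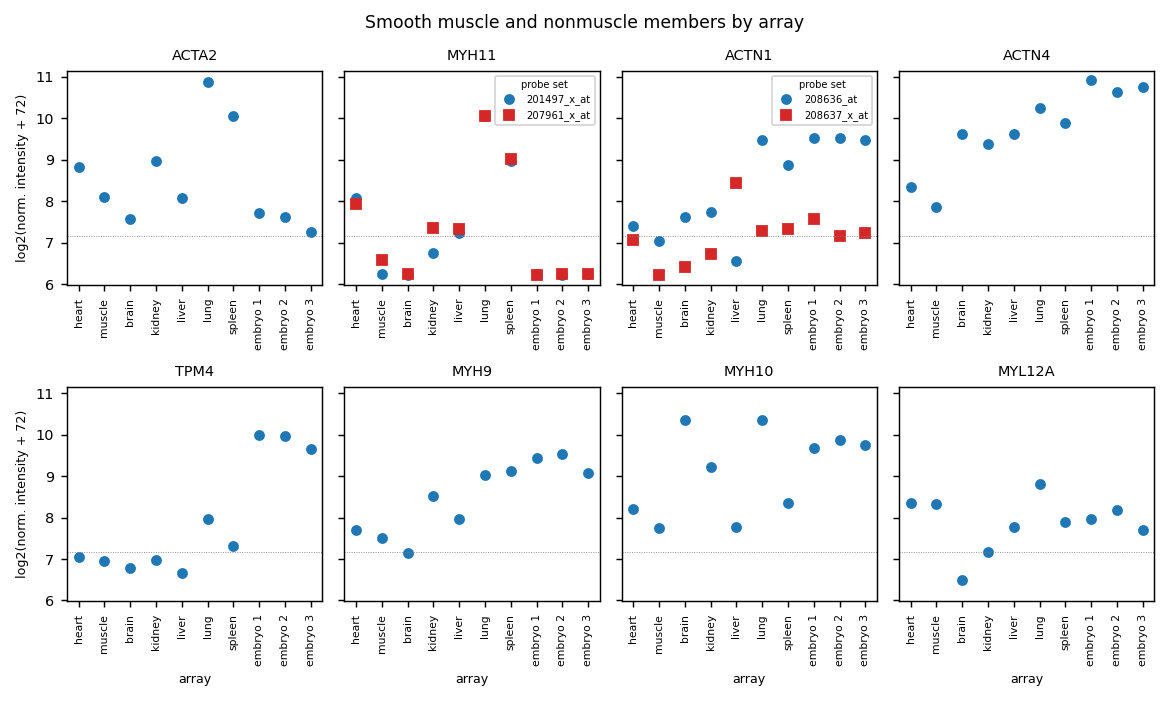
Each panel plots log2(normalised intensity + 72) of 1 smooth muscle or nonmuscle gene on the 10 arrays, with a marker shape for each probe set and the dotted line at an intensity of 72. ACTA2 and MYH11 are brightest in lung and spleen, TPM4 in the 3 embryo arrays, and ACTN4 is highest in embryos and lowest in muscle and heart.

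The plot of smooth muscle and nonmuscle members shows embryos above all tissues for TPM4, ACTN4 and the brighter ACTN1 probe set, and within the tissue range for MYH10 and MYL12A.

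Other muscle genes were read through lists of calcium handling, energy metabolism, cytoskeleton and regulation. Of 15 calcium handling probe sets for 11 genes, 1 was higher in heart and muscle (against 2.59% of all probe sets) and 1 was lower (against 0.707%). Single calls among 15 do not set this list apart from other probe sets. The higher one was HRC, a calcium-binding protein of the sarcoplasmic reticulum (2.29 ± 0.39 SE, limma adjusted p = 0.00933), and the lower one was of ATP2A2 (-1.28, limma adjusted p = 0.0485). A further probe set of ATP2A2, the calcium pump that PLN inhibits, read 2076 in heart and 1927 in muscle, and 306 to 1551 in the other tissues (adjusted p = 0.101), and its last probe set was higher in embryos than in the 7 tissues (1.82, limma adjusted p = 0.00094). RYR2, the cardiac calcium release channel, read 1392 in heart, 396 in brain and 0.18 in muscle, and RYR1, the skeletal channel, 340.4 in muscle and 27.9 in heart. Of the calcium channel genes on the list, CACNA1S read 289 in muscle and 20 in heart. CACNB1 went the other way, with 768 and 712 in heart and 39.3 and 20.1 in muscle on its probe sets.

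Of 17 probe sets for 14 energy genes 6 were higher and none lower, led by ENO3, muscle enolase (3.79 ± 0.29 SE, limma adjusted p = 3.68e-05), with ALDOA, PFKM, PGAM2 and FABP3. ENO3 read 780.3 in heart and 1399 in muscle against 2.31 to 21.5 elsewhere. Of 29 probe sets for 17 striated cytoskeleton genes 7 were higher and none lower, among them SMPX (2.85), CRYAB (2.80), MYOT (2.78) and DMD, dystrophin (1.72). In embryos against the 7 tissues 1 of these 29 was lower (against 1.74% of all probe sets), DMD (-1.84 ± 0.49 SE, limma adjusted p = 0.0407). The 2 higher ones (against 5.46% of all) were CAV3, muscle caveolin (0.90 ± 0.16 SE, limma adjusted p = 0.00573), and TMOD1, a tropomodulin that caps actin filaments (1.17 ± 0.30 SE, limma adjusted p = 0.0337). The CAV3 probe set did not mark striated muscle, at 90.9 in heart, 91.3 in muscle and 92.7 to 151 in the 5 other tissues. The other TMOD1 probe set, at 842 in muscle, did not pass (0.04, limma adjusted p = 0.972). Of 34 nonmuscle cytoskeleton probe sets 2 were higher and 1 lower in embryos. None of 10 probe sets for muscle transcription factors and none of 10 for smooth muscle genes passed; with 2.59% of all probe sets higher and 0.707% lower, counts of 0 of 10 do not set these lists apart from other probe sets. In heart and muscle 1 of 34 for the nonmuscle cytoskeleton was lower, CFL1, an actin-severing protein (-1.60 ± 0.36 SE, limma adjusted p = 0.035). Median log2 differences between heart with muscle and the 5 other tissues were 1.16 for calcium handling, 1.17 for energy and 0.56 for striated cytoskeleton. They were 0.11 for muscle transcription factors, -0.31 for smooth muscle and -0.53 for nonmuscle cytoskeleton, against 1.75 for the members.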

How the data were processed

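Values were the authors' deposited intensities, 1 per probe set and array, per the file headers. For the software, background correction and scaling, the labels and headers used here state nothing. The table lists 22283 probe sets, and 12064 were blank on all arrays and 33 were controls, leaving 10186; 8847 had 1 gene symbol in the platform annotation, 479 several and 860 none. Deposited medians ran from 99.2 to 221 between arrays, so intensities were quantile normalized and log2(intensity + 72) was tested with limma 3.58.1 in R 4.3.3 (trend and robust eBayes, Benjamini-Hochberg adjustment over all 10186, no brightness filter). Heart with muscle, the other 5 tissues and embryos were 3 classes in 1 fit; embryos against all 7 tissues was a separate fit. Heart against muscle has 1 array each and no replicate check. The number of arrays limits the precision. The fits were tested on simulated data. The heart and muscle comparison recovered 11 of 67 probe sets changed by 1 log2, 50 of 67 changed by 2 and 61 of 66 changed by 3. At 1 log2 the embryo comparisons recovered 27 of 67 (7 tissues) and 22 of 67 (5 tissues). Members that did not pass may therefore still differ by 1 log2 or more. TNNI3, for example, did not pass at 2.79 ± 0.92 (SE, limma adjusted p = 0.145) between heart with muscle and the 5 other tissues. In the simulated embryo comparisons heart and muscle did not differ from the other 5 tissues, unlike in many members. Recovery of such members against the 7 tissues may therefore be lower.

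Members and lists were chosen with earlier results of these data known, and the class of MYL5 and MYL10 was set to other after their values were seen. Every member could be named; values were planned for up to 6 genes per role with the widest range over arrays, for the isoform families, and for up to 4 genes of each further list. Values of other members, and CAV3, TMOD1, CFL1 and the further energy genes, were added because of their calls, after these were seen. ATP2A2, SMPX, RYR1, CACNA1S, CNN1, SMTN and PPP1R12B were also named outside that plan. Alternatives were other scalings, offsets and filters, the brightest probe set per gene, averaged embryo arrays, the 7 adult arrays alone, plain eBayes and leaving out each array. All 53 symbols were found in the bovine RefSeq table. MYBPH, MYH15, MYH3, MYH7B, MYL6B, MYL9 and MYOM2 were blank and not analysed here. TNNT2, MYBPC3 and TPM3 belong to the planned isoform families but are neither among the members nor among these blank genes. The families of troponin T, myosin binding protein C and tropomyosin were therefore read without them.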

Additional observations from a re-analysis of the deposited data

How the results depend on the processing

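Of 23 members higher in heart and muscle, 1 was called with values above the median required on 3 arrays, and leaving out 1 array gave 23 to 36, the highest without heart. The 1 lower member became 0 with averaged embryo arrays and with the 7 adult arrays only, and 0 to 2 when 1 array was left out (2 without liver, 0 without muscle). Members higher in embryos than in 7 tissues went from 1 to 3 as deposited, 0 with averaged embryo arrays, and 1 to 3 when 1 array was left out (3 without lung, 2 without spleen). Against the 5 tissues they went from 2 to 1 with a common median, 0 with averaged embryo arrays, and 1 to 3 when 1 array was left out (1 without kidney or any embryo array). Heart 2-fold above muscle went from 11 to 6 with the offset 4 times larger and 4 with the 3-array filter; muscle above heart went from 21 to 1 with that filter. That filter drops probe sets bright on 2 arrays. Over the arrays left out, 7 uncalled muscle probe sets ran from a negative difference without muscle to their highest without heart: NEB -0.047 to 2.86, TNNT3 -0.032 to 2.06, MYF6 -0.25 to 3.62, MYH8 -0.12 to 3.12, MYH8 -0.016 to 4.08, MYBPC1 -0.0028 to 2.28 and MYOZ1 -0.047 to 3.48. Among all probe sets, averaging embryo arrays left 92 higher and 8 lower in heart and muscle, from 264 and 72, and 3 and 0 in embryos against 7 tissues, from 556 and 177. As deposited, 694 and 121 were called there, 85.2% higher in embryos against 75.9%. The cause was not tested where none is given. No paired analysis was possible because only the embryo titles carry numbers and each tissue has 1 array. Low signal limits what dim probe sets can show.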
